A study of Mus musculus with 6 samples.

Results

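Complement is a system of plasma and cell surface proteins of innate immunity, and 35 of its genes were followed in primary mouse osteoblasts, the cells that make bone. The genes were chosen by name, as components and regulators of the pathway. All 35 of the 20659 named genes of the array had a probe, in 43 probes together, matched through the RefSeq accession of each probe. Osteoblasts had been isolated by collagenase digestion of the calvariae (skull caps) of CD1 mice 2 to 5 days after birth. RNA was hybridized to 6 one-color Agilent arrays, 2 for each condition. Undifferentiated osteoblasts had been grown to confluence, and differentiated osteoblasts were kept from confluence in differentiation medium (ascorbic acid and β-glycerol phosphate) for 30 days. Cabozantinib-treated osteoblasts had 30 days of the same medium with 100 nM cabozantinib, a tyrosine kinase inhibitor with affinity for MET and VEGFR2. The methods speak of duplicate sets of RNA and not of separate animals or cultures, so the p values below measure the spread between these arrays, which may be technical.

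Complement is started by several routes. In the classical pathway C1q binds antibody or a surface and activates the proteases C1r and C1s, and in the lectin pathway mannose-binding lectins, ficolins and collectins bind sugars and act through MASP proteases, so that both routes cut C4 and C2. The alternative pathway runs on C3 itself, with factor B, factor D (adipsin) and properdin, and all routes lead to C3, to the anaphylatoxins C3a and C5a, and to the membrane attack complex of C5 to C9. Host cells are shielded by soluble and membrane-bound regulators. The liver makes most of the plasma proteins, macrophages make C1q and carry complement receptors, and adipocytes secrete factor D.

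Levels are given as log2 signal relative to the 75th percentile of the same array, so that 0 is the 75th percentile, and a level of 1 probe is never set against that of another. A gene was tested where the scanner software called a probe well above background on 2 or more arrays, and it was read at its brightest tested probe. Of the 35 complement genes, 29 were tested and 24 of these were well above background on all 6 arrays. C1qa, Mbl1, C8b and C9 were not well above background on any array, and C8a and Mbl2 were so on 1 array, a differentiated one, for each. A gene is said to have risen or fallen where limma gave an adjusted p under 0.05 over all probes tested. The share of all genes tested that moved in that direction is given as the background, and beside it stands a looser criterion, a change of over 2-fold and an unadjusted p below 0.05.

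The file headers give 1 scan date for the undifferentiated and differentiated arrays and another for the cabozantinib arrays. Cabozantinib and the scan therefore cannot be told apart in any comparison with the cabozantinib arrays. The scanner software called between 58.8% and 72.9% of the spots of an array well above background. The share was lowest on the cabozantinib arrays, at 58.9% and 58.8%, and was 61.1% or more on the others. Relative to the 75th percentile the median of all genes tested was 0.11 (log2) for differentiated against undifferentiated osteoblasts, -0.29 for cabozantinib-treated against differentiated and -0.35 for cabozantinib-treated against undifferentiated, and with quantile normalization these medians were 0.10, -0.08 and -0.12. These RNAs come from whole cultures, in which fewer cells of a type and less RNA per cell cannot be told apart. The defining osteoblast markers Alpl, Col1a1 and Ibsp were detected on every array while Bglap had no probe, and the summed linear signal of the osteoblast markers, with the 75th percentile set to 1, was 335 and 161 in undifferentiated osteoblasts, 212 and 321 after differentiation and 263 and 317 with cabozantinib. The sum hides changes of single markers. Of 7 tested, 2 rose and 1 fell with differentiation, with log2 fold changes from -3.67 to 3.99.

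The promoters of 5 genes are printed because C1qc, Vsig4, C3 and Cfd rose strongly with differentiation and Cfd and Cd59a moved most with cabozantinib. Each is the 250 bases before the transcription start in RefSeq (build GRCm38.p6), 5′ to 3′ on the strand of the gene. They lie at chr4:136892915-136893164 (minus strand) for C1qc, chrX:96293439-96293688 (minus strand) for Vsig4, chr17:57228137-57228386 (minus strand) for C3, chr10:79890603-79890852 (plus strand) for Cfd and chr2:104095551-104095800 (plus strand) for Cd59a. Capitals mark matches, on either strand, to motifs of transcription factors of macrophages, fat cells and inflammation.
C1qc: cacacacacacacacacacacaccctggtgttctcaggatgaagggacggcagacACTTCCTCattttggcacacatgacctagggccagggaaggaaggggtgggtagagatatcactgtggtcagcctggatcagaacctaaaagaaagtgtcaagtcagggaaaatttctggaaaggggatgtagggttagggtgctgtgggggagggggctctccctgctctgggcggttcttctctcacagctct
Vsig4: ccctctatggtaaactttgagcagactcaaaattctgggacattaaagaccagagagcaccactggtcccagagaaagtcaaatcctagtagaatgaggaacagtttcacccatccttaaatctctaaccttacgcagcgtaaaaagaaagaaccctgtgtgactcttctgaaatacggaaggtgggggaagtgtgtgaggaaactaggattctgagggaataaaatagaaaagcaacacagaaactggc
C3: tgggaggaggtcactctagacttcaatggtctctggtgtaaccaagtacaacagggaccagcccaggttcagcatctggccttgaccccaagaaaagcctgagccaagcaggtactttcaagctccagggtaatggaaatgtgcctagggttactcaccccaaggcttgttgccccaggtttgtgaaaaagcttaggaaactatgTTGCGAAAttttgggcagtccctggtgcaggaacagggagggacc
Cfd: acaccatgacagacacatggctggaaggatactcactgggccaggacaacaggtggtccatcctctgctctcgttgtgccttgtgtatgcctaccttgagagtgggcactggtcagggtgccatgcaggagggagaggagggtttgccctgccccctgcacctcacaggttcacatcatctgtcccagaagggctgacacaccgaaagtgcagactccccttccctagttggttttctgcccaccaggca
Cd59a: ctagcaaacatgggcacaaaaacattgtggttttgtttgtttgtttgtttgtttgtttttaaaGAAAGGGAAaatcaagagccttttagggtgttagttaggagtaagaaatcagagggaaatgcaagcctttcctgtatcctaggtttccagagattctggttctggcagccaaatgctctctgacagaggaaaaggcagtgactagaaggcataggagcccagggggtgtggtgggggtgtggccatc
The capitals in C1qc are a match to PU.1 (GAGGAAGT), read on the opposite strand and beginning 195 bases before the start. Those in C3 match C/EBP (TTGCNNAA) from 45 bases before the start, and those in Cd59a match IRF (GAAANNGAA) from 187 bases before it. The promoters of Vsig4 and Cfd held no match to these 3 motifs or to GAS (TTCNNNGAA) and the NF-kB core (GGANNTTCC). C4b, which rose more than C3, had no promoter to search. The promoter of C5ar1, which also rose, is not printed and held a match to IRF. Of the 27 complement genes with a promoter in the table, 4 held C/EBP, 3 GAS, 2 IRF, 1 the NF-kB core and 1 PU.1. Among all 32851 promoters of this length the motifs were found in 9.56%, 7.02%, 7.13%, 3.59% and 2.44%, in the same order. Each motif thus occurs in many other promoters, and a match is given only as a description.

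Differentiation was accompanied by a rise of complement transcripts that took in C3, C4, factor B, the soluble regulators and the receptors, and no complement gene fell. Of the 29 genes tested 13 rose, or 44.8%, against a background of 5.26% of all genes higher and 4.44% lower. The 2-fold criterion was met by 19 of them upward and 0 downward, with a background of 10.5% and 9.78%. Their median log2 fold change was 1.76, beside 0.11 for all genes. Cfd is among the 13 but passed the filter only through the arrays where it was high, and without it 12 of 28 rose, or 42.9%. The 13 were C1qc, C2 and C4b of the classical pathway, Fcna of the lectin pathway, C3, Cfb and Cfd, the regulators Serping1, Cfi and C4bp, and the receptors C3ar1, C5ar1 and Vsig4. Without the replicate block C1ra, Colec12 and Cfp passed as well, and the count was 16. With another background correction (normexp) C2, Fcna, Cfb, Cfi, C4bp and C3ar1 did not pass. Without the second differentiated array the count was 9, since C2, Fcna, Cfi and C4bp no longer passed. It was 9 to 17 over all arrays left out in turn, and C1qc, C4b, C3, C5ar1 and Vsig4 passed in each of those fits and in each other limma setting in which they were tested.

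**Figure D1:**
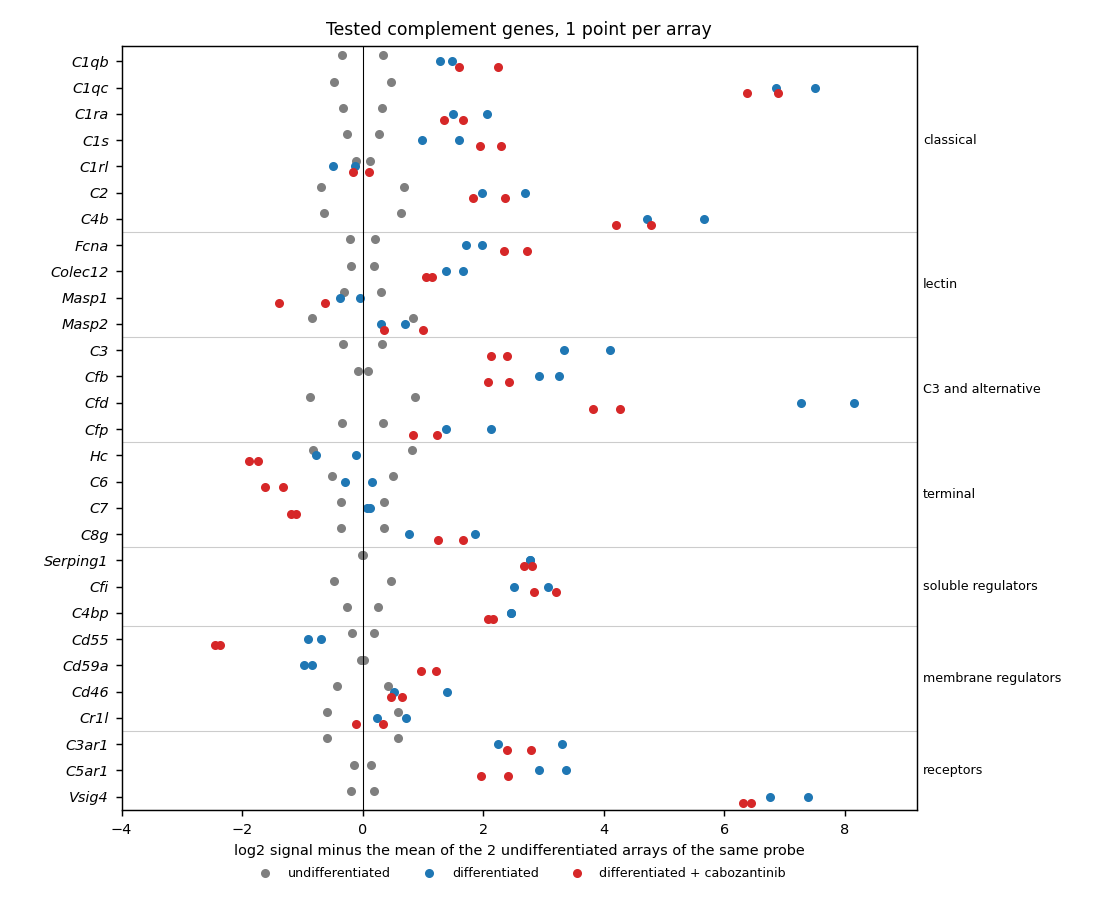
Log2 signal of the 29 tested complement genes on each of the 6 arrays (x axis), as the difference from the mean of the 2 undifferentiated arrays of the same probe, grouped by arm of the pathway (y axis). Each point is 1 array. The differentiated points of C1qc, Vsig4 and Cfd lie farthest to the right, and the cabozantinib points of Cfd lie between the other 2 groups, of which the undifferentiated points of Cfd were not well above background.

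In the classical pathway 3 of 7 tested genes rose. C1qc encodes the C chain of C1q, and its log2 signals were -0.03 and -0.97 in undifferentiated osteoblasts, 6.36 and 7.01 after differentiation and 5.87 and 6.39 with cabozantinib. Both differentiated arrays lay far above both undifferentiated ones, with a log2 fold change of 7.19 ± 0.56 (SE, adjusted p = 0.000238), or 146-fold. The B chain gene C1qb had log2 signals of -2.43 and -3.11 in undifferentiated osteoblasts, -1.48 and -1.28 after differentiation and -0.52 and -1.17 with cabozantinib, a log2 fold change of 1.39 ± 0.51 (SE, adjusted p = 0.135) for differentiation that did not pass. The A chain gene C1qa, which lies next to C1qc with no protein-coding gene between them, as C1qb does on its other side, was not well above background on any array. The 3 chains of 1 protein differed in what their probes showed, and each had 1 probe on this array.

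C4b encodes C4, whose cleavage is shared by the classical and lectin routes. Its log2 signals were 0.23 and -1.04 in undifferentiated osteoblasts, 4.32 and 5.26 after differentiation and 3.80 and 4.38 with cabozantinib. The differentiated arrays were both above the undifferentiated ones, and the log2 fold change was 5.19 ± 0.61 (SE, adjusted p = 0.0011), or 36.5-fold. Its near-identical copy C4a had no probe here, and the C4b probe may also bind its transcript. C2, the protease that joins C4, gave 1.14 and -0.24 in undifferentiated osteoblasts, 2.43 and 3.15 after differentiation and 2.28 and 2.81 with cabozantinib, which put every differentiated array above every undifferentiated one. Its log2 fold change was 2.34 ± 0.61 (SE, adjusted p = 0.0384), and it did not pass after quantile normalization (adjusted p = 0.0838), without the second undifferentiated array (0.0726) or without the second differentiated array (0.378).

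The proteases of C1 moved less. C1ra, which cuts C1s, had log2 signals of 3.99 and 3.34 in undifferentiated osteoblasts, 5.16 and 5.73 after differentiation and 5.01 and 5.33 with cabozantinib. Its log2 fold change was 1.78 ± 0.52 (SE, adjusted p = 0.0635), which passed without the replicate block (adjusted p = 0.0263), after quantile normalization (0.0465) and without the first undifferentiated array (0.026). A second C1ra probe did not show the rise, with a log2 fold change of -0.41, and either probe may also bind the transcript of the copy C1rb. C1s, the protease that cuts C4 and C2, gave -0.67 and -0.13 in undifferentiated osteoblasts, 1.20 and 0.58 after differentiation and 1.89 and 1.55 with cabozantinib, with a log2 fold change of 1.29 ± 0.52 (SE, adjusted p = 0.178). C1rl, a C1r-like protease, lay at -0.84 and -1.07 in undifferentiated osteoblasts, -1.44 and -1.08 after differentiation and -1.11 and -0.85 with cabozantinib. The cabozantinib arrays overlapped both other groups, and the log2 fold change for differentiation was -0.31.

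The lectin pathway held 1 riser among 4 tested genes. Fcna encodes ficolin A, a sugar-binding starter of the pathway, and its log2 signals were -5.29 and -4.88 in undifferentiated osteoblasts, -3.37 and -3.10 after differentiation and -2.36 and -2.74 with cabozantinib. It was well above background on 1 of the 2 undifferentiated arrays and on all others, and its log2 fold change was 1.85 ± 0.50 (SE, adjusted p = 0.0453). The call was lost when any single array was left out (adjusted p from 0.0569 to 0.406). Colec12, a scavenger receptor collectin, gave 3.30 and 3.69 in undifferentiated osteoblasts, 4.88 and 5.15 after differentiation and 4.54 and 4.64 with cabozantinib, with groups that did not overlap and a log2 fold change of 1.52 ± 0.48 (SE, adjusted p = 0.0839). It passed without the replicate block (adjusted p = 0.0267) and without the first undifferentiated array (0.0476). Masp2, the protease that cuts C4 and C2 in this pathway, gave -1.54 and -3.21 in undifferentiated osteoblasts, -2.07 and -1.67 after differentiation and -2.02 and -1.37 with cabozantinib. The groups overlapped, the log2 fold change was 0.50, and its other probes gave -0.24 and 0.57. Masp1, which activates Masp2, lay at -4.92 and -5.53 in undifferentiated osteoblasts, -5.27 and -5.59 after differentiation and -6.61 and -5.84 with cabozantinib, again with overlap between undifferentiated and differentiated arrays (log2 fold change -0.21). It was well above background on 1 undifferentiated and 1 differentiated array only.

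C3 and the alternative pathway had all 4 genes higher, and 3 of them rose. C3, on which all routes meet, had log2 signals of -0.19 and -0.84 in undifferentiated osteoblasts, 2.82 and 3.59 after differentiation and 1.62 and 1.88 with cabozantinib. The differentiated arrays were both above the undifferentiated ones, with a log2 fold change of 3.72 ± 0.53 (SE, adjusted p = 0.00258), or 13.2-fold. A second C3 probe moved the same way by 1.61 and did not pass (adjusted p = 0.0745).

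Cfb, factor B, which forms the C3-cutting enzyme of the alternative pathway, gave -3.20 and -3.37 in undifferentiated osteoblasts, -0.36 and -0.02 after differentiation and -1.21 and -0.85 with cabozantinib. Its log2 fold change was 3.09 ± 0.49 (SE, adjusted p = 0.004), with no overlap. With the normexp background correction it was 2.24, which did not pass (adjusted p = 0.0822). Cfb lies next to C2 in the genome, and 5 protein-coding genes separate it from C4b, so 3 of the risers come from 1 stretch of chromosome 17.

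Cfd, factor D, the protease that activates factor B and a secreted product of fat cells, had log2 signals of -6.82 and -8.57 in undifferentiated osteoblasts, -0.42 and 0.45 after differentiation and -3.88 and -3.43 with cabozantinib. It was not well above background on either undifferentiated array, and so passed the filter only through the arrays where it was high. Its rise is given as at least 53.5-fold (adjusted p = 0.000296), which sets the differentiated mean against the lowest signal that still counted as well above background there. Cfp, properdin, which stabilizes the enzyme, gave 2.52 and 1.83 in undifferentiated osteoblasts, 3.56 and 4.30 after differentiation and 3.01 and 3.42 with cabozantinib. Every differentiated array was above every undifferentiated one, the log2 fold change was 1.76 ± 0.54 (SE, adjusted p = 0.0728), and it passed without the replicate block (adjusted p = 0.0348) and without the first undifferentiated array (0.0262).

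None of the 4 tested genes of the terminal pathway rose or fell. Hc, the gene for C5, had log2 signals of -1.68 and -3.33 in undifferentiated osteoblasts, -3.28 and -2.62 after differentiation and -4.39 and -4.24 with cabozantinib. C6 gave -2.73 and -3.73 in undifferentiated osteoblasts, -3.52 and -3.08 after differentiation and -4.85 and -4.55 with cabozantinib. C7 lay at -3.18 and -3.89 in undifferentiated osteoblasts, -3.47 and -3.42 after differentiation and -4.64 and -4.73 with cabozantinib. In all 3 the undifferentiated and differentiated arrays overlapped, with log2 fold changes of -0.45, -0.07 and 0.09. C8g, the gamma chain of C8, gave -1.02 and -1.74 in undifferentiated osteoblasts, -0.60 and 0.48 after differentiation and -0.14 and 0.29 with cabozantinib, with the differentiated arrays above the undifferentiated ones and a log2 fold change of 1.32 ± 0.56 (SE, adjusted p = 0.209), while its second probe gave 0.31. C8a, C8b and C9, which complete the attack complex, were the 3 terminal genes not tested.

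All 3 soluble regulators rose. Serping1, the C1 inhibitor, had log2 signals of 0.92 and 0.91 in undifferentiated osteoblasts, 3.69 and 3.69 after differentiation and 3.59 and 3.72 with cabozantinib. The 2 arrays of a condition were nearly equal, and the log2 fold change was 2.77 ± 0.48 (SE, adjusted p = 0.00601). A second, dimmer Serping1 probe gave 0.65 (adjusted p = 0.651), so the probes disagree on the size, and with the mean of both the adjusted p was 0.0546.

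Cfi, factor I, the protease that cuts C3b and C4b, gave -4.44 and -5.39 in undifferentiated osteoblasts, -2.39 and -1.84 after differentiation and -2.07 and -1.70 with cabozantinib. Its log2 fold change was 2.80 ± 0.55 (SE, adjusted p = 0.0107), with both differentiated arrays above both undifferentiated ones. Cfi did not pass without the second differentiated array, at 2.37, or with another background correction (normexp), at 1.34 (adjusted p = 0.513). C4bp, the C4b-binding protein that serves factor I as cofactor, lay at -1.87 and -1.37 in undifferentiated osteoblasts, 0.84 and 0.84 after differentiation and 0.55 and 0.46 with cabozantinib. Its log2 fold change was 2.46 ± 0.49 (SE, adjusted p = 0.0118), and the adjusted p was 0.108 without the first and 0.0692 without the second differentiated array.

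The membrane regulators did not rise or fall with differentiation, in 4 of 4 tested. Cd55, decay-accelerating factor, which takes apart the C3-cutting enzymes, had log2 signals of -1.27 and -0.90 in undifferentiated osteoblasts, -1.99 and -1.77 after differentiation and -3.45 and -3.54 with cabozantinib. Cd59a, which blocks the attack complex, gave -1.04 and -1.08 in undifferentiated osteoblasts, -2.04 and -1.89 after differentiation and 0.16 and -0.09 with cabozantinib. Both were lower on each differentiated array than on each undifferentiated one, with log2 fold changes of -0.80 and -0.91, and neither passed (adjusted p = 0.435 and 0.347). Cr1l (Crry), the cofactor for C3b and C4b cleavage on mouse cells, gave 5.43 and 4.26 in undifferentiated osteoblasts, 5.08 and 5.56 after differentiation and 4.73 and 5.18 with cabozantinib, with overlapping groups. Cd46, another cofactor, lay at -6.37 and -5.53 in undifferentiated osteoblasts, -4.54 and -5.44 after differentiation and -5.47 and -5.29 with cabozantinib. It was well above background on 1 array of each condition, and its log2 fold change was 0.96 (adjusted p = 0.399).

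All 3 receptors rose. Vsig4, a macrophage receptor for C3b, had log2 signals of -5.16 and -4.77 in undifferentiated osteoblasts, 1.79 and 2.43 after differentiation and 1.34 and 1.47 with cabozantinib. It was well above background on 1 of 2 undifferentiated arrays and on all others, and its log2 fold change was 7.07 ± 0.49 (SE, adjusted p = 0.000155), or 135-fold. C5ar1, the receptor for C5a, gave -2.36 and -2.64 in undifferentiated osteoblasts, 0.43 and 0.88 after differentiation and -0.53 and -0.09 with cabozantinib. The differentiated arrays were both above the undifferentiated ones, with a log2 fold change of 3.16 ± 0.50 (SE, adjusted p = 0.00395). C3ar1, the receptor for C3a, lay at -2.18 and -1.0 in undifferentiated osteoblasts, 1.71 and 0.66 after differentiation and 1.19 and 0.81 with cabozantinib, with a log2 fold change of 2.78 ± 0.61 (SE, adjusted p = 0.0175) that did not pass after quantile normalization (adjusted p = 0.061) or without the first differentiated array (0.204).

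Markers of macrophages and fat cells moved in the same comparison. The summed linear signal of the macrophage list was 45.1 and 24.8 on the undifferentiated, 307 and 412 on the differentiated and 293 and 360 on the cabozantinib arrays. Of its 12 genes 10 were tested and 7 rose, with Adgre1 at a log2 fold change of 4.04 and Csf1r at 2.84 among the defining markers, while Cd68 had no probe and Cd163 was not well above background on any array. The adipocyte sum was 5.53 and 6.21 on the undifferentiated, 66.2 and 92.1 on the differentiated and 57.8 and 58.2 on the cabozantinib arrays. Of its 10 genes 8 were tested and 5 rose, with Adipoq at least 8.5-fold higher (not well above background on either undifferentiated array) but Cidec and Plin1 at 0.33 and -1.52 on the log2 scale, neither of which passed. The part of these cells in the rise of the complement genes was not tested.

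**Figure D2:**
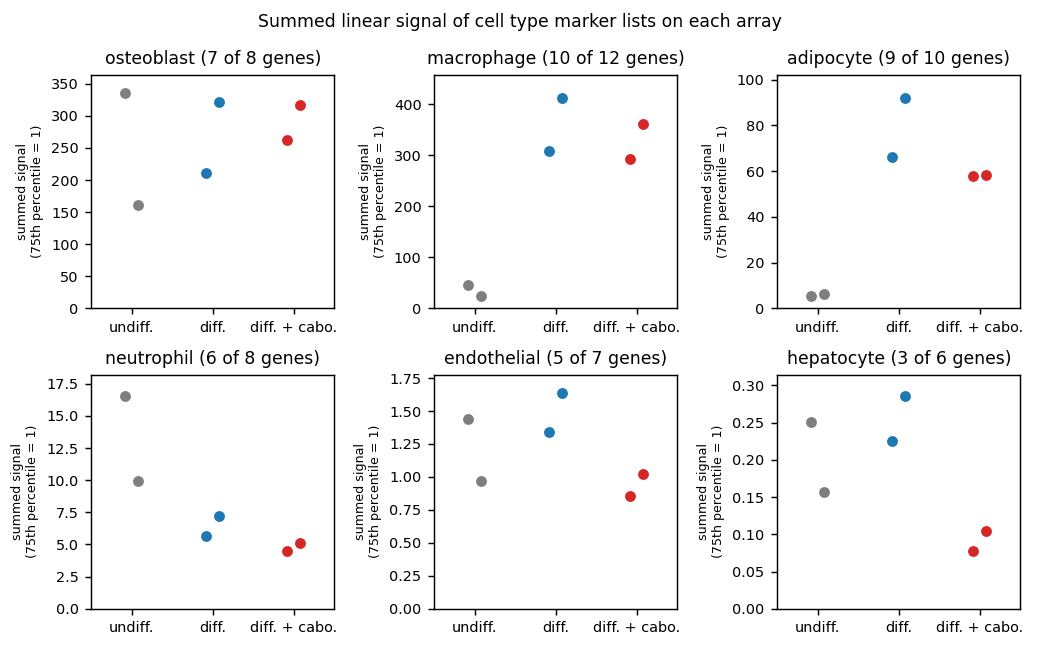
Summed linear signal (y axis, in units of the 75th percentile of the array) of 6 lists of cell type markers on each array of the 3 conditions (x axis), with 1 point per array and in brackets the genes well above background on at least 1 array. The macrophage sum is 24.8 and 45.1 on the undifferentiated arrays and 293 or more on the other 4, and the hepatocyte sum stays under 0.3.

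The neutrophil sum ran from 16.6 and 9.96 on the undifferentiated to 5.67 and 7.19 on the differentiated and 4.46 and 5.15 on the cabozantinib arrays, against the direction of the complement genes, with Elane and Mpo well above background on all 6 arrays and Cxcr2 on none. The endothelial sum lay between 0.859 and 1.64, and Pecam1 and Cdh5 were both well above background on 5 arrays or more. Of the 4 endothelial markers tested 1 rose with differentiation and 1 fell with cabozantinib against differentiated osteoblasts. The hepatocyte sum lay between 0.0782 and 0.286 on all 6 arrays, with Fgb not well above background on any array and Alb on 2. Of the 3 hepatocyte markers tested 1 fell with cabozantinib against differentiated osteoblasts.

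Other genes of the pathway moved in the same direction. Of 22 further complement genes (receptor subunits, further regulators and close copies) 18 were tested, 8 rose and 0 fell with differentiation, against the same background. The risers were clusterin (Clu) at a log2 fold change of 2.60, the second C5a receptor C5ar2 at 2.85, the integrin chains of the C3b fragment receptors Itgax at 7.64 and Itgb2 at 2.71, the collectin Colec10 at 2.56, the C1s copy C1s2 at 2.80, Csmd1 at 2.48 and Cd93 at 3.36. Itgam, the other integrin chain of these receptors, met the 2-fold criterion at 1.48 and did not pass (adjusted p = 0.119). Itgax is carried by macrophages and dendritic cells. C1s2 rose where C1s did not pass, and the probes of these copies may each bind both transcripts.

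With cabozantinib Cfd fell, and the share of complement genes that were lower was near that of all genes. Of the 29 tested 0 rose and 1 fell, against a background of 0.121% of all genes higher and 2.55% lower. The 2-fold criterion was met by 1 upward (Cd59a) and 5 downward (C3, Cfd, C6, C7 and Cd55), or 3.45% and 17.2%, with a background of 2.71% and 20.7%. The share that was lower is thus near the background, and the median log2 fold change was -0.39 beside -0.29 for all genes. With only the 4 arrays compared in the fit and the replicate block kept, 8 of the 29 passed, 1 upward and 7 downward, with a background of 2.8% and 21.2% in that fit, and after quantile normalization 0 did. The 8 were Cfd, Cd59a, Cd55, C3, Hc, C6, C7 and C5ar1. For this comparison, leaving out either undifferentiated array amounts to that same fit, so it gave the same 8 and is no further evidence. Over all arrays left out in turn the log2 fold change of Cfd ran from -4.43 to -2.91. The 6 genes at the criterion were all those with an unadjusted p under 0.05. This comparison shares its differentiated arrays with the one above.

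Cfd was the gene that fell. It went from -0.42 and 0.45 on the differentiated to -3.88 and -3.43 on the cabozantinib arrays, and both cabozantinib arrays were below both differentiated ones and above both undifferentiated ones. The log2 fold change was -3.67 ± 0.66 (SE, adjusted p = 0.0473), or 12.7-fold lower. It had the same direction after quantile normalization, at -3.29, where it did not pass (adjusted p = 0.177). Nor did it pass with the normexp background correction, at -2.84, or with no filter on dim probes (adjusted p = 0.143). It also did not pass without the second differentiated array, at -2.91, or without the first cabozantinib array, at -3.23. Against undifferentiated osteoblasts it was at least 4.2-fold higher (adjusted p = 0.0063). Among the adipocyte markers none rose or fell in this comparison. Fabp4 was at -2.05 (adjusted p = 0.0628), Cidec at -2.00 (0.0667), Adipoq at -1.36 (0.224) and Pparg at -1.06 (0.253). The other way lay Cebpa at 1.34 (adjusted p = 0.204), Slc2a4 at 0.82 (0.487) and Lpl at 0.31 (0.843), while Plin1 was not well above background on either cabozantinib array. Their part in the fall of Cfd was not tested.

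**Figure D3:**
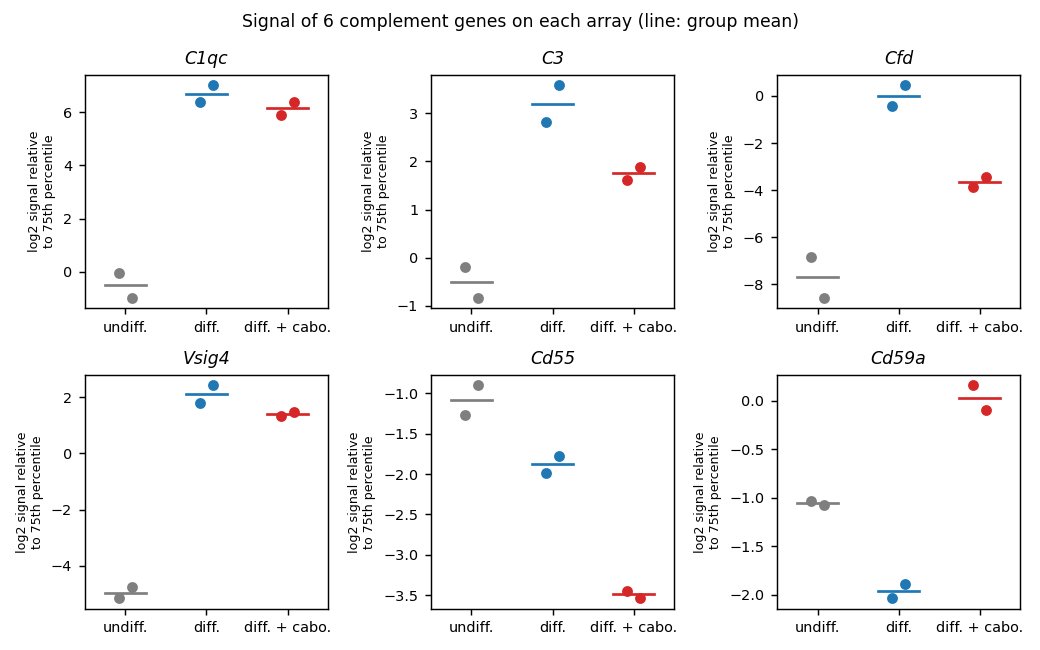
Log2 signal relative to the 75th percentile (y axis, its own range in each panel) of C1qc, C3, Cfd, Vsig4, Cd55 and Cd59a on each array of the 3 conditions (x axis), with 1 point per array and a line at the group mean. In C1qc and Vsig4 the cabozantinib arrays sit near the differentiated ones, in C3 and Cfd between the other groups, in Cd55 below both and in Cd59a above both.

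All 4 genes of C3 and the alternative pathway, Cfd included, were lower on both cabozantinib arrays than on either differentiated array, and all 4 log2 fold changes were below 0 after quantile normalization as well. Of the 29 genes 13 lay below both differentiated arrays in this way, or 44.8%, and so did 44.2% of all genes. C3 had a log2 fold change of -1.45 ± 0.53 (SE, adjusted p = 0.137), Cfb of -0.84 ± 0.49 (SE, adjusted p = 0.363) and Cfp of -0.72 ± 0.54 (SE, adjusted p = 0.513), none of which passed. Against undifferentiated osteoblasts C3 and Cfb rose, at 2.26 ± 0.53 (SE, adjusted p = 0.0251) and 2.25 ± 0.49 (SE, adjusted p = 0.0192). The second C3 probe gave 0.95 in that comparison (adjusted p = 0.22). With the mean of both probes C3 did not pass (adjusted p = 0.0567).

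Cd55 and Cd59a, both of which hang on the cell membrane by a lipid anchor, lay on opposite sides of the differentiated arrays after cabozantinib. Cd55 was at -3.45 and -3.54 on the cabozantinib arrays, below all 4 other arrays, with a log2 fold change of -1.61 ± 0.49 (SE, adjusted p = 0.0857) against differentiated osteoblasts that passed without the replicate block (adjusted p = 0.0307). Against undifferentiated osteoblasts it fell by 2.41 ± 0.49 on the log2 scale (SE, adjusted p = 0.0147), the 1 complement gene of the 29 that fell in that comparison. That call did not pass without the first (adjusted p = 0.102) or the second cabozantinib array (0.231). Its copy Cd55b was at -1.91 (adjusted p = 0.0611) against differentiated and fell by 2.24 (adjusted p = 0.0196) against undifferentiated osteoblasts, and the 2 probes may share transcripts.

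Cd59a was at 0.16 and -0.09 on the cabozantinib arrays and at -2.04 and -1.89 on the differentiated ones, above all 4 other arrays. The log2 fold change was 2.00 ± 0.48 (SE, adjusted p = 0.0548), or 3.99-fold higher, and it passed without the replicate block (adjusted p = 0.0231). Its copy Cd59b was at 0.83 (adjusted p = 0.434).

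Hc, C6 and C7, which start the attack complex, were each lower on both cabozantinib arrays than on all 4 other arrays. Their log2 fold changes against differentiated osteoblasts were -1.36 ± 0.62 (SE, adjusted p = 0.223), -1.40 ± 0.54 (SE, adjusted p = 0.156) and -1.24 ± 0.50 (SE, adjusted p = 0.169). After quantile normalization they were smaller, at -0.78, -0.74 and -0.56, and under 2-fold. Together with Cd55 and Masp1, 5 of the 29 genes lay below all 4 other arrays, or 17.2%, beside 29.8% of all genes. The 4 genes C1qb, C1s, Fcna and Cd59a lay above all 4 other arrays, or 13.8%, beside 4.16%. C8g was at 0.14 by its brightest probe and at -1.38 (adjusted p = 0.143) by its second, so its probes disagree in sign.

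None of the remaining genes rose or fell. C1qc was at -0.55 ± 0.56 (SE, adjusted p = 0.681), C4b at -0.70 ± 0.61 (SE, adjusted p = 0.612) and C1ra at -0.28 ± 0.52 (SE, adjusted p = 0.876). The receptors Vsig4, C5ar1 and C3ar1 were at -0.70, -0.97 and -0.18, and the macrophage markers gave 0 of 10 that rose or fell. Of these 10 markers 6 had a log2 fold change below 0, among them Adgre1 at -0.53 and Csf1r at -0.17. The other 4 were above 0, the highest at 0.44. Laptm5 alone met the 2-fold criterion, at least 2.81-fold lower (adjusted p = 0.143). The regulators Serping1, Cfi and C4bp were at -0.03, 0.23 and -0.33, and Serping1 changed sign after quantile normalization (0.08), with its second probe at 1.51 (adjusted p = 0.141). C1s, Fcna and C1qb were higher, at 0.82, 0.68 and 0.54, C1rl was at 0.28, and C2, Colec12, Masp2 and Cr1l at -0.24, -0.42, 0.18 and -0.36. The list of secreted factors that the study drew up for this comparison on these same arrays holds Fcna, so its direction is no independent evidence. Cd46 was at -0.39 and turned to 0.47 after quantile normalization. Masp1 was not well above background on either cabozantinib array, so no fold is given. By the brightest probes C5ar1 had the lowest adjusted p of the complement genes of this paragraph, 0.29. Of the other probes of Masp2 1 was at -0.64 (adjusted p = 0.554) and 1 was at least 2.6-fold lower (0.0647), being not well above background on either cabozantinib array. The second C1ra probe was at 1.02 (adjusted p = 0.265), so the probes of both genes disagree in sign.

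**Figure D4:**
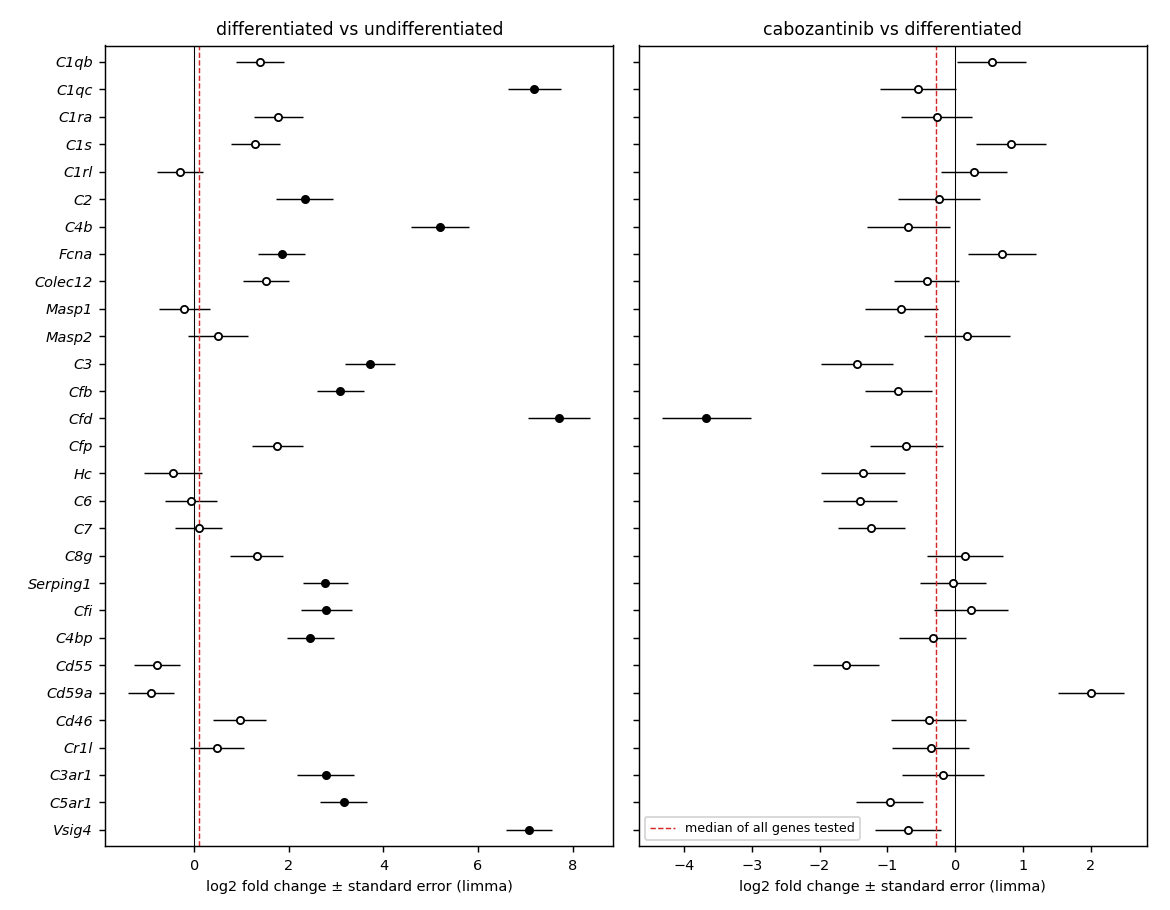
Log2 fold change with its standard error (x axis) of the 29 tested complement genes (y axis, by arm of the pathway), for differentiated against undifferentiated osteoblasts on the left and cabozantinib-treated against differentiated on the right. Filled points have an adjusted p under 0.05 and the dashed line is the median of all genes tested, at 0.11 and -0.29. On the left 13 points are filled, all to the right of 0, and on the right only Cfd is, at -3.67. On the left Cfd stands at its fitted value, although neither undifferentiated array was well above background.

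Among the 18 further complement genes tested 0 rose or fell with cabozantinib by the adjusted p, and 4 met the 2-fold criterion downward. These were Cd55b, the C1r copy C1rb at -1.62, Fcnb (ficolin B) and the collectin Colec11, a share of 22.2% against the background of 20.7%. Fcnb and Colec11 were not well above background on either cabozantinib array, and as bounds they were at least 3.12-fold and 1.24-fold lower, so Colec11 met the criterion only by its fitted value.

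Compared directly with undifferentiated osteoblasts, 15 of the 29 complement genes rose in the cabozantinib-treated osteoblasts and 1 fell, against a background of 4.68% and 8.72%. The 2-fold criterion was met by 19 upward and 4 downward, against 8.12% and 23.4%. Cfd is among the 15 but passed the filter only through the arrays where it was high. Of the 27 genes well above background on at least 1 array of both groups, 14 rose, or 51.9%, and 1 fell. Of the 15, C1qb and C1s had not passed in differentiated osteoblasts, and here their log2 fold changes were 1.92 ± 0.51 (SE, adjusted p = 0.0363) and 2.12 ± 0.52 (SE, adjusted p = 0.0286). The levels of both genes with and without cabozantinib differed by the values given above, which did not pass. The other 13 are the genes that rose with differentiation alone, among them C1qc at 6.63 ± 0.56 (SE, adjusted p = 0.000345), Vsig4 at 6.37 ± 0.49 (SE, adjusted p = 0.000281), C4b at 4.50 ± 0.61 (SE, adjusted p = 0.00291), Cfi at 3.02 ± 0.55 (SE, adjusted p = 0.00973) and Serping1 at 2.74 ± 0.48 (SE, adjusted p = 0.00854). After quantile normalization C1s (adjusted p = 0.0605), C2 (0.107) and C3ar1 (0.0833) did not pass. Both comparisons use the same undifferentiated arrays. The count of genes that rose or fell was 16, and it was 5 without the first and 4 without the second cabozantinib array. The genes C1qc, C4b and Vsig4 passed when any single array was left out. Of the further complement genes 7 rose and 2, Cd55b and Fcnb, fell. The 7 are those that rose with differentiation other than Csmd1, which met the 2-fold criterion at 1.66 (adjusted p = 0.0519), as did Cd59b at 1.27 (0.139) and, downward, Cr2 at -1.47 (0.0847). Colec11 met it downward by its fitted value, and the bounds of Colec11 and Fcnb were at least 1.17-fold and 3-fold lower.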

How the data were processed

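RNA of 6 samples (2 arrays for each of 3 conditions, replicate numbers from the sample titles) was measured on the 4x44K Whole Mouse Genome Oligo Microarray of Agilent. The deposited scanner intensity of each spot is background-subtracted and detrended on a linear scale by Feature Extraction 11.0.1.1, per the file headers. The authors' table holds log2 values of 30439 probes with nearly equal medians, and its normalization is not given in the sources used here. Here control and outlier spots were left out of the scanner intensities, log2 values were averaged over the spots of each probe, and each array was set relative to its 75th percentile. Probes well above background on at least 2 arrays were kept (27232 probes, 23082 genes, counting a probe without a gene under its transcript name). RefSeq names came from a table of assembly GRCm38.p6, which named 69.1% of the 39429 probes. A gene was read at its tested probe with the highest mean. limma 3.58.1 in R 4.3.3 was fitted to the 6 arrays together with terms for condition and replicate number, since the methods name a paired test, and p values were adjusted by Benjamini-Hochberg over the probes tested. The fit left 2 residual degrees of freedom, to which pooling of variances added 7.71. A bound ("at least") sets a group mean against the lowest signal well above background in the other group. The functions were tested on simulated data. The number of arrays limits the precision.

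The named genes are all members with values on every array, their other probes where these differ, and 22 further complement genes where called or past the 2-fold criterion, and 1 more gene of that list is not reported here. The members and the lists were chosen with earlier results of these data known. The normexp alternative used the median spot signal in place of the mean signal, which was not used here. Python 3.11.15 (pandas 2.3.3, matplotlib 3.10.9) served for promoters and figures.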

Additional observations from a re-analysis of the deposited data

How the results depend on the processing

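Comparisons are given in the order differentiated against undifferentiated, cabozantinib-treated against differentiated and cabozantinib-treated against undifferentiated. Of the 29 tested genes 13, 1 and 16 were called by limma, 19, 6 and 23 met the 2-fold criterion, and the medians were 1.76, -0.39 and 1.92. The calls were 12, 0 and 13 after quantile normalization and with the authors' values, 7, 0 and 4 with the normexp background correction, 10, 0 and 8 with no filter on dim probes, 12, 0 and 13 with a filter that keeps probes detected on all 6 arrays, 15, 2 and 17 with a variance trend and robust settings, and 12, 2 and 15 with the mean of the probes of a gene. They were 16, 3 and 19 without the replicate block, 12, 8 and 16 with only the 4 arrays compared and the block, and 15, 7 and 17 with those arrays and no block. The samples share only a number, as far as the labels say, and the term for it was kept because the methods name a paired test. The differences of replicate 1 minus 2 correlated across 27192 probes at -0.51 and -0.53 between the undifferentiated arrays and the other groups and at 0.26 between the other groups, so the numbers of the undifferentiated arrays may be exchanged, which the labels do not settle. With the undifferentiated numbers exchanged in the replicate block, a setting chosen after the data were seen, 20, 10 and 25 were called. With each array left out in turn 9 to 17, 0 to 8 and 4 to 19 were called, 11 to 20, 1 to 7 and 15 to 22 met the criterion, and the medians were 1.56 to 1.97, -0.65 to -0.28 and 1.20 to 1.92. A fit that left 1 array in a group assumes that it varies like the others. The methods' t-test, paired or unpaired, gave 0 calls after adjustment, and 4, 3 and 3 (paired) or 12, 5 and 15 (unpaired) genes at the criterion, while normexp gave 3 at the criterion for the second comparison and 14 for the third. The median of the first comparison was 1.59 with the authors' values, 1.34 with normexp, 1.39 with no filter and 1.52 with the mean of probes. The median of the second was -0.23 with quantile normalization, -0.22 with the authors' values and -0.55 with the mean of probes, and that of the third 1.27 with normexp and 1.1 with no filter. No fit with the scan as a term was possible for cabozantinib. The cause of these differences was not tested.

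None of the genes that changed sign was called in that comparison. By normexp C7 and Cd46 turned to -0.0501 and -0.10 in the first comparison, C3ar1 to 0.031 in the second and Cd46 to -0.48 in the third. By quantile normalization and the authors' values, in that order, Masp1 turned to 0.15 and 0.16, Serping1 to 0.075 and 0.079 and Cd46 to 0.47 and 0.48 in the second comparison, and C1rl to 0.094 and 0.095 in the third. By the mean of probes C1ra turned to 0.37, Masp2 to -0.78, C8g to -0.62 and Serping1 to 0.74 in the second and Masp2 to -0.51 in the third. With single arrays left out, the first comparison ran from -0.62 to 0.21 for Masp1, -0.59 to 1.60 for Masp2, -1.48 to 0.58 for Hc, -0.76 to 0.62 for C6, -0.25 to 0.43 for C7 and -0.34 to 1.29 for Cr1l. The second ran from -0.65 to 0.10 for C1ra, -0.81 to 0.33 for C2, -0.47 to 0.82 for Masp2, -0.47 to 0.75 for C8g, -0.10 to 0.037 for Serping1, -0.19 to 0.65 for Cfi, -1.09 to 0.31 for Cd46, -0.78 to 0.058 for Cr1l and -0.91 to 0.54 for C3ar1. The third ran from -0.29 to 0.24 for C1rl, -0.42 to 1.78 for Masp2, -0.027 to 1.17 for Cd46 and -0.70 to 0.93 for Cr1l. Signal over background limits the 6 untested genes, and Fcna, Masp1, Cfd, Cd46 and Vsig4, which were not well above background on at least 1 array.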

Other observations

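The complement genes that were not tested lay near the floor of the arrays. C1qa had log2 signals relative to the 75th percentile of -5.20 and -6.57 on the undifferentiated, -6.48 and -6.56 on the differentiated and -7.15 and -7.28 on the cabozantinib arrays. Mbl2, a mannose-binding lectin, was well above background on 1 differentiated array, with levels of -5.49 and -5.16 on the 2 differentiated arrays. C8a was also well above background on 1 differentiated array, at -5.30, with -6.36 on the other. Mbl1 ranged from -8.63 to -6.90, C8b from -7.74 to -6.79 and C9 from -7.63 to -6.88 over the 6 arrays, and no fold is given for these genes.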
